A study of Mus musculus with 18 samples.

Results

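The comparison described here sets messenger RNA in slowly sedimenting particles against messenger RNA on ribosomes in the testes of adult mice. It rests on 6 of the 18 arrays of the series: 3 of the RNP fraction and 3 of the polysome fraction, all titled as adult in the labels and all from mice of strain CD1, an outbred stock. The labels give no numeric age for the adults and name no treatment or genetic change. All 22626 probe sets that are not array controls belong to the comparison, and 14066 of them passed a filter on low signal and were tested.

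The labels state that cytoplasmic extract was layered on sucrose gradients running from 10 to 30%, that 17 fractions were taken, and that RNA came from fractions 2 to 8 for RNPs and from fractions 11 to 17 for polysomes. The fractions between these blocks went into neither sample. Each array carries a biological replicate number, and nothing states that different numbers were different animals, so p-values measure only the spread between these samples. RNA of a whole testis mixes germ cells of all stages with somatic cells. In such bulk RNA, fewer cells of a type and less of a transcript per cell cannot be told apart, and a fraction difference is an average over all cells that hold the transcript.

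RNPs, ribonucleoprotein particles, are messenger RNAs packed with proteins and carrying few or no ribosomes, whereas a polysome is a messenger RNA being read by several ribosomes at once. Germ cells are known for storing messages: transcription stops as the spermatid nucleus condenses, so many proteins of the sperm are made from transcripts that waited as RNPs. Proteins that bind untranslated regions or coat messages, such as the Y-box proteins, and enzymes that lengthen or shorten poly(A) tails are known parts of that control.

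Differences are given as RNP minus polysome on the scale of log2(intensity + 15.4) with the standard error (SE) of a limma model, so a positive value lies on the RNP side. When 3 values follow each other they are those of replicates 1, 2 and 3, in intensity units. A difference was called when its adjusted p was under 0.05. Every array had been scaled to the same trimmed mean, so the tested values do not show unequal RNA content of the fractions. A side is therefore relative to other transcripts and does not tell where most copies of a message were. The constant of 15.4 makes the differences of dim transcripts look smaller than they are.

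Of the 14066 tested probe sets, 1772 (12.6%) were called higher in RNPs and 3640 (25.9%) higher on polysomes, in all 38.5%. On the deposited scale, the only one on which sizes were counted, differences on the polysome side were larger. There 2414 called probe sets differed at least 2-fold, 366 at least 4-fold and 36 at least 8-fold, against 907, 55 and 0 on the RNP side. All 3 RNP arrays lay above all 3 polysome arrays for 1911 probe sets (13.6%), and the reverse held for 3556 (25.3%). With the replicate number as a block, 2672 (19%) and 4830 (34.3%) were called. They held 1771 of the 1772 and 3638 of the 3640.

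**Figure D1:**
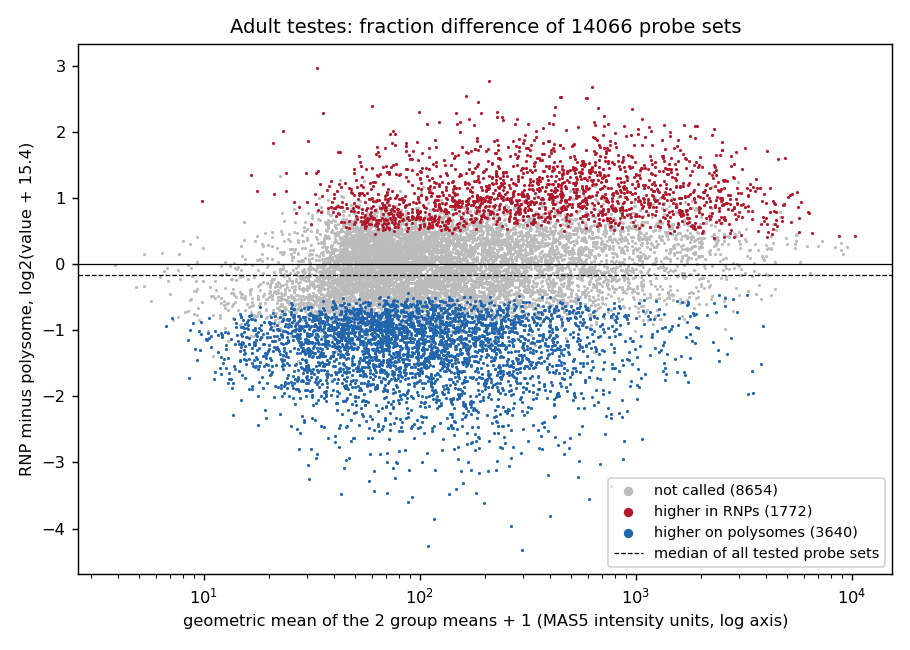
Fraction difference in adult testes, RNP minus polysome on the log2(value + 15.4) scale, against the geometric mean of both group means in MAS5 intensity units (log axis). Each point is 1 of 14066 probe sets, coloured where called; the 3640 points called below 0 reach further from 0 than the 1772 called above it.

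The arrays held what the label adult testis implies. The protamines of late spermatids were among the brightest signals of both fractions, markers of Leydig and Sertoli cells were detected, and all but 1 of the epididymal markers stayed low, as given with each list below. Replicates correlated across probe sets at 0.915 to 0.926 in RNPs and at 0.859 to 0.940 on polysomes. The 3'-to-5' ratio of the Actb control was 1.51 to 2.12 on RNP arrays and 1.38 to 1.40 on polysome arrays, and that of Gapdh 1.10 to 2.11 and 1.09 to 1.42. The 18S control was high in both fractions of replicate 1 (2694 and 2041 units) and low in replicate 3 (76.9 and 84.1). The part of these measures in the fraction differences was not tested.

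The balance between the sides depended on how the arrays were scaled. On the authors' scale the median of all tested differences was -0.17 and 67.3% of the calls lay on the polysome side. Quantile normalization of the arrays moved the median up by 0.17 and gave 2354 RNP (16.7%) and 2840 polysome calls (20.2%), so that 54.7% of calls were on the polysome side. Centring on the medians moved it by 0.29 and gave 3271 (23.3%) and 2336 (16.6%), or 41.7%, and quantile normalization within each fraction moved it by 0.28 and gave 3277 (23.3%) and 2404 (17.1%), or 42.3%. In all 4 scalings, 1485 probe sets (10.6%) were called on the RNP side and 2291 (16.3%) on the polysome side. A direction below is that on the authors' scale, and places where a scaling turned the side of a list or a named gene, or ended the call of a named gene, are given with it.

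**Figure D2:**
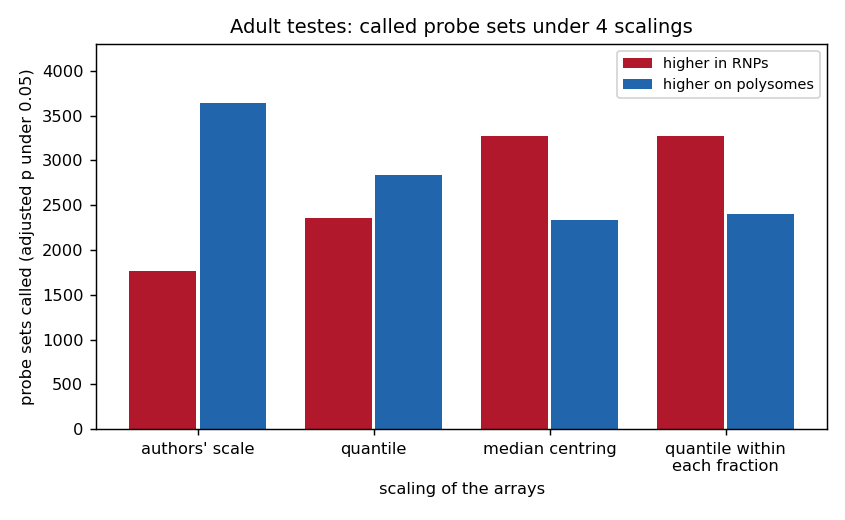
Number of probe sets called in adult testes (adjusted p under 0.05) on each side under 4 scalings of the arrays. The RNP bars run from 1772 to 3277 and the polysome bars from 2336 to 3640, and the higher bar changes sides between the second and the third scaling.

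The largest difference on the RNP side belonged to C8b, which encodes the beta chain of complement component C8. Its arrays read 101, 173 and 195 intensity units in RNPs against 2.4, 9.9 and 6.2 on polysomes, a 7.8-fold difference (log2 2.96 ± 0.28 SE, adjusted p = 1.53e-06), and the polysome arrays lay near the bottom of the scale. Atoh8, a basic helix-loop-helix transcription factor gene, read 527, 222 and 958 intensity units in RNPs against 51.4, 19.3 and 155 on polysomes (log2 2.77 ± 0.49 SE, adjusted p = 0.000281). Its replicates differed more among themselves than those of C8b, but the fractions did not overlap.

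Itgae, the alpha E integrin, read 1570, 1968 and 1315 intensity units in RNPs against 308, 237 and 182 on polysomes (log2 2.67 ± 0.36 SE, adjusted p = 2.51e-05). Ypel1, of the Yippee family of small zinc-binding proteins, read 1016, 1003 and 1347 intensity units in RNPs against 152, 191 and 201 on polysomes (log2 2.53 ± 0.25 SE, adjusted p = 2.03e-06), with both groups tight. The other probe sets among the 15 largest on the RNP side lay between 2.28 and 2.55. They include Fem1a, a substrate receptor of a ubiquitin ligase (2.46 ± 0.33), Nme6, of the nucleoside diphosphate kinase family (2.30 ± 0.30), Ankrd54, an ankyrin repeat protein (2.35 ± 0.28), Dgcr6 (2.36 ± 0.30) and the testis-expressed t-complex gene Tcte2 (2.28 ± 0.44). RIKEN clone names without an assigned function made up 4 of the 15: 2610528A11Rik, 1700093K21Rik, 0610012G03Rik and 1700097N02Rik.

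The polysome side was headed by Sparc and Cyp11a1. Sparc, a secreted matrix-binding glycoprotein, read 203, 16.5 and 8.5 intensity units in RNPs against 1728, 912 and 814 on polysomes (log2 -4.33 ± 0.84 SE, adjusted p = 0.000635). With the same constant added to each value, Sparc was 20-fold higher on polysomes. Its first RNP array lay far above the other RNP arrays and still below every polysome array. Cyp11a1, which cuts the side chain of cholesterol to begin steroid hormone production, read 47.7, 2.1 and 5.6 intensity units in RNPs against 483, 286 and 1065 on polysomes (log2 -4.26 ± 0.48 SE, adjusted p = 5.88e-06). Again RNP array 1 was the highest of its group, as it was for Gsta4, a glutathione transferase, at 62.5, 11 and 5.4 intensity units in RNPs against 436, 418 and 643 on polysomes (log2 -3.85 ± 0.45 SE, adjusted p = 7.7e-06).

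Fabp3, a fatty acid binding protein, had the smallest standard error of the 15 genes named on this side, at 112, 74.6 and 113 intensity units in RNPs against 1402, 1430 and 1980 on polysomes (log2 -3.81 ± 0.25 SE, adjusted p = 4.98e-08). Rpa2, a subunit of the single-strand DNA binding protein of replication, read 6.8, 5.8 and 8.1 intensity units in RNPs against 294, 208 and 206 on polysomes (log2 -3.48 ± 0.27 SE, adjusted p = 3.57e-07), near the lowest signals of the arrays in RNPs. Hmgb2, a chromatin protein of the high mobility group, read 46.1, 23.1 and 32.6 intensity units in RNPs against 385, 660.3 and 561 on polysomes (log2 -3.47 ± 0.29 SE, adjusted p = 7.41e-07). Groups did not overlap for any of these, as the naming rule required.

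Further down the polysome side were Etfa, which passes electrons from fatty acid oxidation to the respiratory chain (-3.43 ± 0.32), thioredoxin Txn1 (-3.41 ± 0.31), the smooth muscle myosin light chain Myl9 (-3.47 ± 0.34), Cited1, a transcriptional coregulator (-3.52 ± 0.34), and Mmd2 (-3.46 ± 0.35). Each stayed called without any single adult array and in every scaling.

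**Figure D3:**
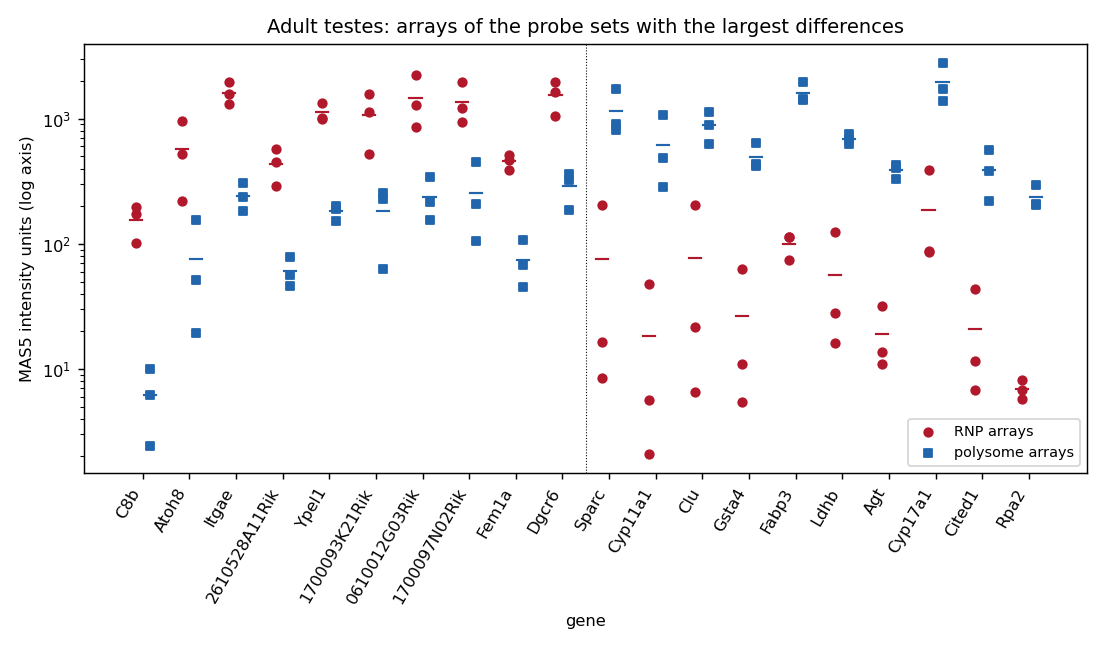
Intensity (MAS5 units, log axis, values under 1 drawn at 1) of the 10 largest differences on each side in adult testes, 3 RNP arrays as circles and 3 polysome arrays as squares. The 3 arrays of a fraction lie apart from the 3 of the other for each of the 20 genes.

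Gene lists were then set beside the tested genes as a whole, each gene standing for its brightest probe set. The lists and their members were chosen with earlier results of these data known. Their counts and medians therefore describe these genes and are not an independent test of a list. Over 8713 genes, 13.8% were called in RNPs and 24.9% on polysomes, with a median difference of -0.12. Where another scaling, the block, a fit on the adult arrays alone or the loss of 1 adult array moved a list's counts by over 1.5 times, the counts under it are given.

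Among genes that pack the spermatid nucleus, no difference was called. The 6 measured members are the transition proteins Tnp1 and Tnp2, the protamines Prm1, Prm2 and Prm3, and the linker histone Hils1. Their median was 0.48, and limma gave 0 calls among them on either side, 0 also at an unadjusted p under 0.05. Tnp1 read 4485, 6556 and 6967 intensity units in RNPs against 3988, 3644 and 3190 on polysomes (0.71 ± 0.78), and Tnp2 read 6130, 6362 and 7407 intensity units in RNPs against 3394, 3174 and 4129 on polysomes (0.90 ± 0.87). Both had all RNP arrays above all polysome arrays, yet the model's error, estimated over all 6 groups of the series, was about as large as the difference. Of the 6 genes, 3 were called in RNPs with the replicate block and 3 in a fit on the 6 adult arrays alone, both including Tnp1 (block adjusted p = 0.0307) and Tnp2 (0.0487). Prm1 and Prm2 differed by 0.25 ± 0.80 and 0.20 ± 0.79, both turning just below 0 after quantile normalization. Their values, 9194, 11068 and 10670 for Prm1 in RNPs, lay near the top of the range, where the highest value of any array was 12560.

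Of 24 genes of the sperm tail and its fibrous sheath, 7 were called in RNPs and 1 on polysomes (median 0.39, and -0.04 after quantile normalization). The counts became 5 in RNPs and 4 on polysomes after quantile normalization and 11 and 4 with the block. They were 6 and 2 without polysome array 1 and 5 and 2 without RNP array 3. The largest was Spata19, a mitochondrial protein of the sperm midpiece, at 2300, 3832 and 4395 intensity units in RNPs against 588, 939 and 857 on polysomes (log2 2.10 ± 0.42 SE, adjusted p = 0.000819). Txndc8, a thioredoxin of spermatids (1.94 ± 0.40), and Meig1, needed for the manchette that shapes the spermatid (2508, 4263 and 3224 intensity units in RNPs against 939, 1313 and 1229 on polysomes, 1.49 ± 0.19), were called as well. The exception was Dnah8, a dynein heavy chain, at 912, 692 and 1120 intensity units in RNPs against 1844, 3485 and 4692 on polysomes (log2 -1.79 ± 0.27 SE, adjusted p = 8.39e-05). Odf4, an outer dense fibre gene, was called (1.24 ± 0.34), but not without RNP array 3 (adjusted p = 0.0525). Odf1, Akap4 and Smcp, the best known tail transcripts, differed by 0.29 ± 0.42, 0.30 ± 0.44 and 0.43 ± 0.33 and were not called.

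Of 21 acrosome and sperm surface genes, 6 were called in RNPs and 1 on polysomes (median 0.37). The counts became 1 in RNPs and 1 on polysomes on the adult arrays alone. They were 3 and 1 without polysome array 1 or RNP array 2. With single adult arrays left out, the median ran from 0.10 (without polysome array 1) to 0.68 (without polysome array 2). The proprotein convertase Pcsk4, of the acrosomal region, read 352, 135 and 393 intensity units in RNPs against 150.4, 29.6 and 107 on polysomes (log2 1.54 ± 0.40 SE, adjusted p = 0.00569), with the groups overlapping, and was not called in a fit on the 6 adult arrays alone. Acr, the protease acrosin, differed by 1.01 ± 0.27, a call that ended in the fit on the adult arrays alone (adjusted p = 0.0687). Adam3 and Adam5, membrane proteins of the sperm head, differed by 1.63 ± 0.47 and 1.71 ± 0.58. The call of Adam3 ended without polysome array 1 or RNP array 2 (adjusted p 0.0619 to 0.0657), and that of Adam5 without polysome array 1, RNP array 2 or RNP array 3 (adjusted p 0.0927 to 0.168). Gopc, a Golgi protein needed to build the acrosome, was on the polysome side at 17, 32.4 and 43.1 intensity units in RNPs against 58, 141 and 113 on polysomes (log2 -1.34 ± 0.33 SE, adjusted p = 0.00429).

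Germ cells use their own versions of many enzymes. Of 25 such isozymes and isoforms, 4 were called in RNPs and 0 on polysomes (median 0.46, and 0.01 after quantile normalization; 6 and 2 at an unadjusted p under 0.05). The counts became 0 in RNPs and 5 on polysomes after quantile normalization, 12 and 0 with medians centred, 9 and 0 with quantiles set within fractions and 15 and 3 with the block. They were 9 and 0 without RNP array 1, 3 and 1 without RNP array 2 and 4 and 1 without RNP array 3. The side with calls therefore turned after quantile normalization. Fabp9, a fatty acid binding protein of spermatids, read 3956, 5456 and 4639 intensity units in RNPs against 1588, 3282 and 2148 on polysomes (log2 1.05 ± 0.22 SE, adjusted p = 0.00141), and the glutathione transferase Gstm5 read 6984, 8614 and 9016 intensity units in RNPs against 3499, 5572 and 5409 on polysomes (log2 0.79 ± 0.16 SE, adjusted p = 0.000823). Pgam2, a phosphoglycerate mutase, differed by 0.92 ± 0.22, and the phosphatase subunit gene Ppp1cc by 0.49 ± 0.15. Quantile normalization ended all 4 calls, with the adjusted p of Fabp9 nearest to the threshold (0.58, adjusted p = 0.0535), and that of Ppp1cc ended also without RNP array 2 (adjusted p = 0.06). The block brought in Pgk2, the phosphoglycerate kinase of germ cells (0.61 ± 0.33, adjusted p = 0.156, block 0.0121, called also with medians centred), and, on the polysome side, the chaperone Hspa2 (-0.67 ± 0.30, adjusted p = 0.0825, block 0.00134, and -1.02, adjusted p = 0.0113 after quantile normalization).

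Spermatid kinases and regulators made the list with the highest median, 0.68, with 14 of 32 called in RNPs and 1 on polysomes. The counts became 10 in RNPs and 0 on polysomes after quantile normalization or on the adult arrays alone, 18 and 0 with medians centred or with quantiles set within fractions and 20 and 2 with the block. They were 12 and 2 without polysome array 1, 11 and 0 without polysome array 3 and 8 and 0 without RNP array 3. Spata4 read 3103, 6358 and 5125 intensity units in RNPs against 908, 2017 and 1806 on polysomes (log2 1.63 ± 0.26 SE, adjusted p = 0.000138). The testis-specific serine kinases Tssk1 and Tssk2 read 2443, 1911 and 3341 intensity units in RNPs against 959, 591 and 935 on polysomes (log2 1.61 ± 0.31 SE, adjusted p = 0.00068) and 2641, 2681 and 2725 intensity units in RNPs against 1092, 925 and 720.2 on polysomes (log2 1.56 ± 0.34 SE, adjusted p = 0.00149). Tbpl1, a relative of the TATA-binding protein needed in spermatids, differed by 1.56 ± 0.35, and Ube2j1, a ubiquitin-conjugating enzyme of the endoplasmic reticulum, by 1.44 ± 0.23. The LIM domain protein gene Fhl4 read 2808, 4600 and 3887 intensity units in RNPs against 724, 2148 and 1382 on polysomes (adjusted p = 0.00198). In the 6 genes named here the fractions did not overlap. The polysome call was Hmgn5, a nucleosome binding protein at low signal (-0.91 ± 0.30), and it ended without polysome array 2, polysome array 3 or RNP array 3 (adjusted p 0.0646 to 0.0967), or after quantile normalization, with medians centred, with quantiles set within fractions or with a pseudocount of 1 (adjusted p 0.0524 to 0.0896).

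**Figure D4:**
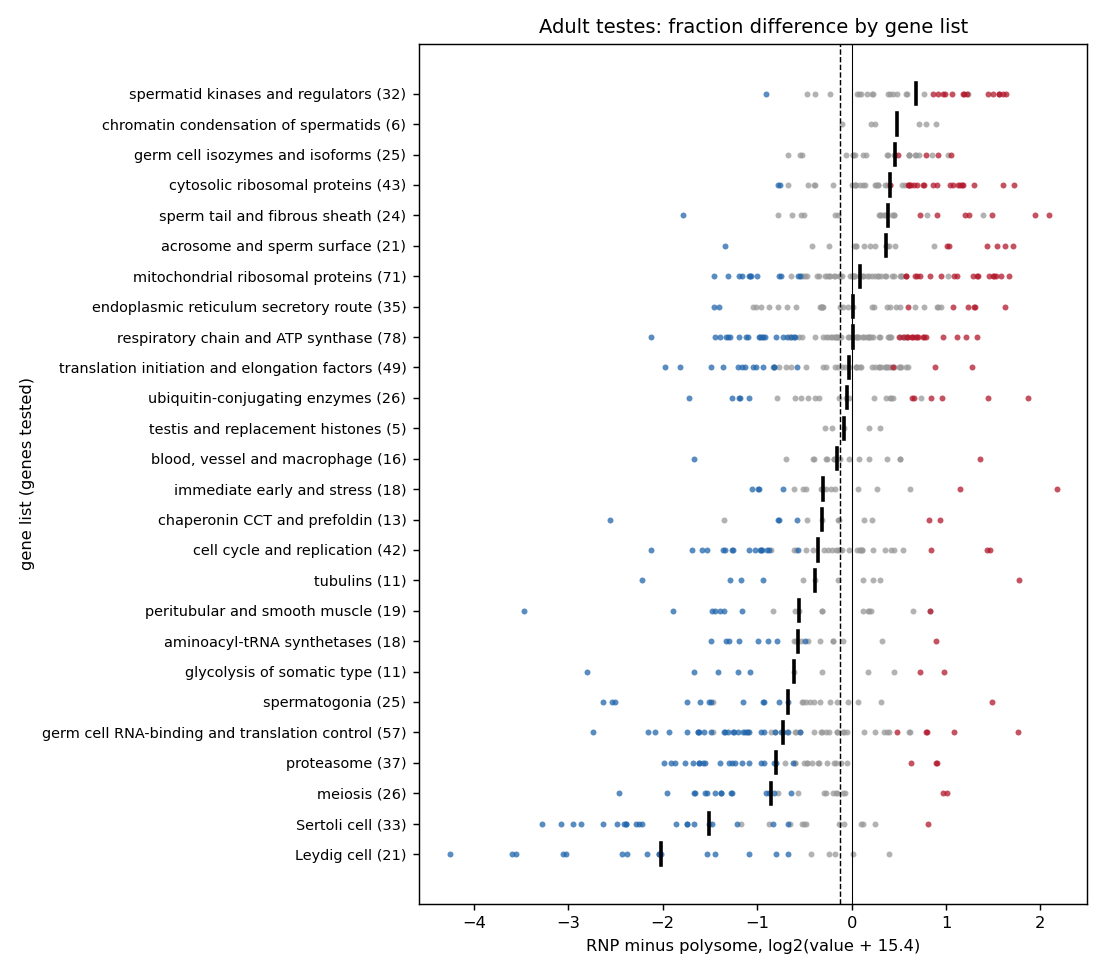
Fraction difference in adult testes by gene list, RNP minus polysome on the log2(value + 15.4) scale, 1 brightest probe set per gene, with the number of genes tested in brackets. The dashed line marks the median of 8713 genes, -0.12; the Leydig and Sertoli lists lie furthest to its left, with medians of -2.02 and -1.51.

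Transcripts of the proteins that control stored messages leaned to the polysome side, with some in RNPs. Of 57 tested genes for germ cell RNA-binding proteins and translational control, 27 were called on polysomes and 5 in RNPs (median -0.73). The counts became 8 in RNPs and 19 on polysomes with medians centred or with quantiles set within fractions, 8 and 34 with the block and 1 and 18 on the adult arrays alone. They were 3 and 30 without polysome array 1 and 3 and 24 without RNP array 3. Dazl, an RNA-binding protein of germ cells that acts on translation, read 173, 180.1 and 124 intensity units in RNPs against 856, 1747 and 989 on polysomes (log2 -2.74 ± 0.26 SE, adjusted p = 1.62e-06). Piwil1, the PIWI protein of pachytene piRNAs, read 244, 246 and 256 intensity units in RNPs against 850, 910.2 and 849.6 on polysomes (log2 -1.74 ± 0.20 SE, adjusted p = 6.03e-06). The helicase Dhx36, the splicing-linked Sfpq and Celf1, a regulator of splicing and message decay, differed by -2.15 ± 0.39, -2.08 ± 0.26 and -1.94 ± 0.28.

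The exception with the largest difference was Ybx1, a Y-box protein that coats messenger RNA, at 5814, 6152 and 5715 intensity units in RNPs against 1491, 1969 and 1754 on polysomes (log2 1.76 ± 0.17 SE, adjusted p = 1.52e-06). Its fractions did not overlap, and both groups were tight. Its germ cell relative Ybx2 read 5633, 3802 and 6696 intensity units in RNPs against 3832, 2618 and 4001 on polysomes (0.61 ± 0.28, adjusted p = 0.0901) and was called only with the block (0.00266), without RNP array 2, and with medians centred or quantiles set within fractions. Igf2bp3, an RNA-binding protein of the IMP family, was called in RNPs (0.79 ± 0.23), though not on the adult arrays alone (adjusted p = 0.125). So was Papolb, the cytoplasmic poly(A) polymerase of the testis (1.08 ± 0.39), but not without polysome array 1, polysome array 3, RNP array 2 or RNP array 3 (adjusted p 0.0597 to 0.187), or after quantile normalization or with no filter (adjusted p 0.0519 to 0.0794). The calls of Tarbp2, a partner of Dicer (0.80 ± 0.24), and of the poly(A)-binding protein Pabpc1 (0.48 ± 0.15) ended, in turn, without polysome array 2 or RNP array 1 (adjusted p 0.0639 to 0.0644) and without polysome array 1, RNP array 2 or RNP array 3 (adjusted p 0.0619 to 0.0992), or after quantile normalization, with no filter or with no variance trend (adjusted p 0.0639 to 0.99). Quantile normalization took the difference of Pabpc1 to zero. Ddx4, the germ cell helicase VASA, was on the polysome side (-0.93 ± 0.32), but not without polysome array 2, polysome array 3, RNP array 1 or RNP array 3 (adjusted p 0.0923 to 0.157), or with medians centred or with quantiles set within fractions (adjusted p 0.119 to 0.135).

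Cytosolic ribosomal protein genes leaned to the RNP side. Of 43 tested, 20 were called in RNPs and 2 on polysomes, with a median of 0.41 (0.21 after quantile normalization). The counts became 11 in RNPs and 4 on polysomes after quantile normalization, 28 and 1 with medians centred, 27 and 1 with quantiles set within fractions, 25 and 4 with the block and 9 and 0 on the adult arrays alone. They were 24 and 1 without polysome array 1, 13 and 2 without polysome array 2, 16 and 4 without RNP array 1 and 15 and 1 without RNP array 2. In RNPs 10 stayed called whichever single adult array was left out. Rplp0, of the ribosomal stalk, read 4773, 3509 and 5139 intensity units in RNPs against 1813, 786 and 1641 on polysomes (log2 1.72 ± 0.23 SE, adjusted p = 2.4e-05). Rps7 read 5292, 6032 and 4943 intensity units in RNPs against 2444, 2530 and 2327 on polysomes (log2 1.15 ± 0.13 SE, adjusted p = 4.49e-06), and Rps29 read 4446, 6046 and 5221 intensity units in RNPs against 2171, 2120 and 2640 on polysomes (1.17 ± 0.15). Rpl41 differed by 1.61 ± 0.37 and Rps20 by 1.30 ± 0.20. Rps29, Rpl41 and Rps20 were read by probe sets of a kind that can also detect related sequences, and ribosomal protein genes have many near-identical pseudogenes, so the gene behind such a signal is uncertain. Rpl6 went the other way at 1050, 1037 and 1004 intensity units in RNPs against 1903, 1757 and 1618 on polysomes (log2 -0.76 ± 0.14 SE, adjusted p = 0.000413), though not in a fit on the adult arrays alone. Rps4l also went that way (-0.78 ± 0.28), but its call ended without polysome array 1, RNP array 2 or RNP array 3 (adjusted p 0.0945 to 0.173), or with medians centred, with quantiles set within fractions or with no filter (adjusted p 0.0541 to 0.19).

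Ribosomal protein messages are known for a C at their first base followed by a run of pyrimidines, the TOP start, through which growth signals control their translation. A C at the annotated start followed by at least 4 bases that are each C or T, on the gene's strand, was found for 7 of 37 ribosomal protein genes with a window in RefSeq (GRCm38.p6). It was found for 3.38% of 7095 tested genes and for 2.51% of all 32851 windows. The 7 are shown because they are the ribosomal protein genes with that start. Each line gives 10 bases before the start and 20 from it, and capitals mark the pyrimidine run that begins at the start.
Rps6 (chr4:86857348-86857377, minus strand): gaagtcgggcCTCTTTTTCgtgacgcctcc
Rps10 (chr17:27635225-27635254, minus strand): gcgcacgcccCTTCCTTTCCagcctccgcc
Rplp2 (chr7:141447641-141447670, plus strand): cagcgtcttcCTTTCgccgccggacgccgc
Rps18 (chr17:33955646-33955675, minus strand): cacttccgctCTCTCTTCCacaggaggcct
Rpl38 (chr11:114668570-114668599, plus strand): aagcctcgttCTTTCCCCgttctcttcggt
Rpl35 (chr2:39005112-39005141, minus strand): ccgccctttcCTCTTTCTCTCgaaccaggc
Rps27 (chr3:90213629-90213658, minus strand): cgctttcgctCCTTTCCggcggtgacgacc

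Of these 7 genes, 4 were called in RNPs: Rplp2 (0.41 ± 0.13), Rpl38 (0.60 ± 0.16), Rpl35 (0.76 ± 0.22) and Rps27 (1.18 ± 0.38, a call that ended without polysome array 2, polysome array 3, RNP array 2 or RNP array 3 (adjusted p 0.0619 to 0.11)). Rps18, Rps10 and Rps6 differed by 0.53 ± 0.23, 0.15 ± 0.19 and -0.68 ± 0.34 and were not called. The 7 had a median of 0.53. The 30 ribosomal protein genes without the start in their window had a median of 0.39, and 13 of them were called in RNPs. Outside the ribosome, 233 tested genes with such a start had a median of 0.04, with 39 (16.7%) called in RNPs and 62 (26.6%) on polysomes. Over all 8713 genes the shares were 13.8% and 24.9%. The 6855 tested genes with a window but without the start had a median of -0.13. An annotated start can lie some bases from the one used in testis, so a window without the run says only that these letters are not there.

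Mitochondrial ribosomal proteins, 71 genes made on cytosolic ribosomes and sent to mitochondria, had calls on both sides. The shares were 25.4% in RNPs and 16.9% on polysomes, against 13.8% and 24.9% of all tested genes. In RNPs 18 were called, among them Mrpl55 at 710.2, 617 and 664 intensity units in RNPs against 276, 161 and 175 on polysomes (log2 1.66 ± 0.24 SE, adjusted p = 4.5e-05), Mrpl57 (1.58 ± 0.22) and Mrpl47 (1.52 ± 0.30). On polysomes 12 were called, among them Mrpl3 at 192, 222 and 224 intensity units in RNPs against 521, 476 and 513 on polysomes (log2 -1.19 ± 0.19 SE, adjusted p = 0.000119), Mrpl21 (-1.46 ± 0.28) and Mrpl46 (-1.16 ± 0.22). The median of the list was 0.09. The counts became 11 in RNPs and 8 on polysomes on the adult arrays alone.

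Of 49 initiation and elongation factors, 3 were called in RNPs and 13 on polysomes (median -0.03). The counts became 16 in RNPs and 5 on polysomes with medians centred, 12 and 6 with quantiles set within fractions, 12 and 14 with the block and 1 and 6 on the adult arrays alone. They were 8 and 13 without polysome array 1, 2 and 7 without polysome array 2 and 6 and 10 without RNP array 1. The side with more calls thus depended on the scaling, and the median was 0.27 with medians centred. Eif2s2, the beta subunit of eIF2 that brings the initiator tRNA, read 877, 1034 and 708 intensity units in RNPs against 2408, 2392 and 1944 on polysomes (log2 -1.36 ± 0.20 SE, adjusted p = 6.17e-05). Eif3c, of the eIF3 scaffold, differed by -1.20 ± 0.25, and Eef1e1, a factor held in the tRNA synthetase complex, by -1.98 ± 0.30. In RNPs lay Eif4e2, a cap-binding protein that represses translation, at 1212, 836 and 1100 intensity units in RNPs against 479, 361 and 429.7 on polysomes (log2 1.27 ± 0.22 SE, adjusted p = 0.000248). Of 18 aminoacyl-tRNA synthetases, which load amino acids on tRNAs, 8 were called on polysomes and 1 in RNPs (median -0.56), with Lars at 100.3, 82.6 and 94 intensity units in RNPs against 193, 329 and 369 on polysomes (log2 -1.49 ± 0.22 SE, adjusted p = 6.88e-05) and Rars (-1.33 ± 0.29). The counts became 0 in RNPs and 4 on polysomes after quantile normalization, 1 and 3 with medians centred or with quantiles set within fractions and 0 and 3 on the adult arrays alone. They were 0 and 7 without polysome array 2, 0 and 6 without polysome array 3 or RNP array 3 and 0 and 9 without RNP array 1.

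Proteasome subunits were mostly on the polysome side. Of 37 tested, 20 were called there and 3 in RNPs, and the median was -0.80. The counts became 0 in RNPs and 23 on polysomes after quantile normalization and 2 and 12 on the adult arrays alone. Psmb1, a subunit of the catalytic core, read 211, 184 and 208 intensity units in RNPs against 824, 781 and 792 on polysomes (log2 -1.92 ± 0.17 SE, adjusted p = 1.03e-06), and Psma2, of the outer ring of the core, read 359, 278 and 256 intensity units in RNPs against 946, 1022 and 851 on polysomes (log2 -1.62 ± 0.18 SE, adjusted p = 6.03e-06). The core subunits Psmb3, Psmb4, Psmb5 and Psmb7 differed by -1.99 ± 0.30, -1.87 ± 0.24, -1.77 ± 0.32 and -1.68 ± 0.22. The fractions of all 6 did not overlap. On the RNP side were Psma6 (0.90 ± 0.22) and Psmc2 (0.90 ± 0.20), both read by probe sets that can detect related sequences and both lost after quantile normalization, and Psmd8 (0.63 ± 0.21), which was lost without polysome array 2, polysome array 3, RNP array 1 or RNP array 3 (adjusted p 0.0704 to 0.115), or after quantile normalization (adjusted p = 0.337).

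Of 26 ubiquitin-conjugating enzymes, which hand ubiquitin on to the ligases, 6 were called in RNPs and 5 on polysomes (median -0.04, and above 0 in the other scalings). The counts became 11 in RNPs and 5 on polysomes with medians centred, 10 and 5 with quantiles set within fractions, 10 and 8 with the block and 3 and 5 on the adult arrays alone. Ube2d2b read 481, 780.4 and 656 intensity units in RNPs against 78.1, 245 and 206 on polysomes (log2 1.87 ± 0.32 SE, adjusted p = 0.000236), and Ube2t, which acts in DNA repair, lay on the other side at 289, 325 and 139 intensity units in RNPs against 729.7, 933 and 802 on polysomes (log2 -1.73 ± 0.25 SE, adjusted p = 5.86e-05). Of 13 subunits of the chaperonin CCT and of prefoldin, which fold actin and tubulin, 4 were called on polysomes and 2 in RNPs (median -0.31). The counts became 2 in RNPs and 7 on polysomes after quantile normalization or with the block, 2 and 1 with medians centred or with quantiles set within fractions and 0 and 1 on the adult arrays alone. They were 2 and 7 without polysome array 1, 1 and 3 without polysome array 2, 2 and 2 without RNP array 1 and 1 and 4 without RNP array 3. The side with more calls turned with medians centred or quantiles set within fractions. Pfdn2 stood out at 117, 72.5 and 75.9 intensity units in RNPs against 729, 488 and 565 on polysomes (log2 -2.56 ± 0.26 SE, adjusted p = 2.71e-06), while Pfdn5 was called in RNPs (0.82 ± 0.22), though not in a fit on the adult arrays alone.

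Genes of meiosis lay to the polysome side, 15 of 26 tested against 2 in RNPs, with a median of -0.85. The counts became 2 in RNPs and 8 on polysomes on the adult arrays alone. They were 2 and 9 without polysome array 2. Ccnb1ip1, needed for crossovers, read 29.2, 55.2 and 23 intensity units in RNPs against 181, 409 and 227 on polysomes (log2 -2.46 ± 0.30 SE, adjusted p = 1.02e-05), and Trip13, an ATPase that remodels the chromosome axis, read 32.5, 51.5 and 27.6 intensity units in RNPs against 106, 258 and 226 on polysomes (log2 -1.96 ± 0.33 SE, adjusted p = 0.000173). H2ax, the histone marked at DNA breaks and on the sex body, read 794, 419 and 329 intensity units in RNPs against 2150, 1322 and 999 on polysomes (log2 -1.53 ± 0.30 SE, adjusted p = 0.000604). The RNP calls were Syce2, of the synaptonemal complex central element, at 2999, 4126 and 2791 intensity units in RNPs against 1955, 1572 and 1464 on polysomes (log2 0.97 ± 0.21 SE, adjusted p = 0.00139), and Psmc3ip, a partner of the recombinase DMC1, at 1020, 1227 and 1556 intensity units in RNPs against 499, 575 and 794 on polysomes (log2 1.01 ± 0.21 SE, adjusted p = 0.00106).

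Of 25 spermatogonial genes, 12 were called on polysomes and 1 in RNPs (median -0.67). Stra8, the gatekeeper of meiotic entry, read 24.6, 10.3 and 16.2 intensity units in RNPs against 169, 162 and 218 on polysomes (log2 -2.63 ± 0.23 SE, adjusted p = 1.03e-06), Dmrt1, a transcription factor of spermatogonia and Sertoli cells, read 31.5, 19.7 and 29.6 intensity units in RNPs against 236, 247 and 202 on polysomes (log2 -2.53 ± 0.30 SE, adjusted p = 9.21e-06), and the deubiquitinase Uchl1 differed by -2.50 ± 0.26. The RNP call was Dmrtb1, a regulator of the switch from mitosis to meiosis, at 1617, 1478 and 2460 intensity units in RNPs against 684, 487 and 756 on polysomes (log2 1.49 ± 0.24 SE, adjusted p = 0.000145). Of 42 cell cycle and replication genes, 16 were called on polysomes and 3 in RNPs (median -0.35). The counts became 7 in RNPs and 13 on polysomes with medians centred, 7 and 14 with quantiles set within fractions, 6 and 19 with the block and 2 and 9 on the adult arrays alone. Mcm6 and Mcm3, subunits of the replicative helicase, were on polysomes, with Mcm6 at 4.1, 10.9 and 50.5 intensity units in RNPs against 68.4, 174 and 162 on polysomes (-2.13 ± 0.38) and Mcm3 at -1.69 ± 0.25. So was Bub1, a kinase of the spindle checkpoint (-1.53 ± 0.35). The RNP calls were Ube2c, the ubiquitin-conjugating enzyme of the anaphase-promoting complex (0.84 ± 0.23, not called in a fit on the adult arrays alone), Birc5, the survivin of the chromosomal passenger complex, at 759.8, 762 and 761 intensity units in RNPs against 307, 265 and 247 on polysomes (log2 1.43 ± 0.20 SE, adjusted p = 4.35e-05), and Cdca3, a trigger of mitotic entry, at 2262, 1802 and 2078 intensity units in RNPs against 882, 585 and 754 on polysomes (log2 1.46 ± 0.21 SE, adjusted p = 5.72e-05).

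Markers of Leydig and Sertoli cells had the lowest medians of all lists. Leydig cells lie between the tubules and produce androgen. Of 21 of their genes, 16 were called on polysomes and 0 in RNPs, and the median was -2.02. The fit on the adult arrays alone called 14 and 0, and at an unadjusted p under 0.05 limma gave 16 and 0. Their summed signal was 3154 to 5549 units on the RNP arrays and 11136 to 15583 on the polysome arrays. Cyp17a1, of androgen synthesis, read 390, 86.3 and 87.5 intensity units in RNPs against 1742, 1397 and 2765 on polysomes (log2 -3.56 ± 0.54 SE, adjusted p = 8.15e-05). Hsd3b1, a hydroxysteroid dehydrogenase of the same route, read 131, 99.8 and 69.4 intensity units in RNPs against 332, 670.2 and 931 on polysomes (log2 -2.43 ± 0.34 SE, adjusted p = 3.69e-05), and Agt, angiotensinogen, read 32, 13.7 and 10.9 intensity units in RNPs against 329.9, 406 and 426 on polysomes (log2 -3.60 ± 0.38 SE, adjusted p = 3.05e-06). Ephx1, an epoxide hydrolase, differed by -3.06 ± 0.34 and the prostaglandin D synthase Ptgds by -3.03 ± 0.29.

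Of 33 Sertoli cell genes, which mark the nursing cells of the tubule, 21 were called on polysomes and 1 in RNPs (median -1.51). Their summed signal was 2545 to 5746 units on RNP arrays and 10888 to 16758 on polysome arrays. Amhr2, the receptor of anti-Müllerian hormone, read 13.8, 8.5 and 14.8 intensity units in RNPs against 280.2, 267 and 216 on polysomes (log2 -3.28 ± 0.35 SE, adjusted p = 3.39e-06), and Espn, an actin-bundling protein of the junctions around spermatids, read 22.8, 2.4 and 3.5 intensity units in RNPs against 243, 132 and 189 on polysomes (log2 -3.08 ± 0.37 SE, adjusted p = 9.65e-06). Ctsl, a secreted cathepsin, differed by -2.86 ± 0.48, and Tsx by -2.48 ± 0.27. The RNP call was Fshr, the receptor of follicle-stimulating hormone, at 119.8, 114 and 59.2 intensity units in RNPs against 47.9, 48.1 and 44.8 on polysomes (log2 0.81 ± 0.22 SE, adjusted p = 0.00703), low on all arrays and not called in a fit on the adult arrays alone.

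Peritubular and smooth muscle genes had 7 of 19 called on polysomes and 1 in RNPs (median -0.56), with Mylk, myosin light chain kinase, at 104, 152 and 78.3 intensity units in RNPs against 353, 302 and 306 on polysomes (log2 -1.44 ± 0.28 SE, adjusted p = 0.000575) and the tropomyosins Tpm1 (-1.89 ± 0.41) and Tpm2 (-1.47 ± 0.34). The counts became 2 in RNPs and 6 on polysomes after quantile normalization, 3 and 6 with medians centred, 4 and 6 with quantiles set within fractions, 3 and 10 with the block and 0 and 5 on the adult arrays alone. They were 2 and 6 without polysome array 2, 0 and 5 without RNP array 3, 0 and 8 without polysome array 1, 0 and 6 without polysome array 3, 3 and 7 without RNP array 1 and 0 and 7 without RNP array 2. Of 16 tested blood, vessel and macrophage genes, 1 was called on each side (median -0.15, and above 0 in the other scalings), the lysozyme Lyz1 on polysomes (-1.67 ± 0.31) and the antigen-presenting H2-Ab1 in RNPs (1.36 ± 0.33). In RNPs 2 were called with medians centred, with quantiles set within fractions, with the block or without polysome array 1, and on polysomes 2 without RNP array 1. Of 7 epididymal genes on the array, 5 stayed at or below 54.7 units on every adult array and were not tested. Eppin read 135, 115 and 109 intensity units in RNPs against 208, 301 and 275 on polysomes and was called on polysomes (-1.02 ± 0.28), but not after quantile normalization or with quantiles set within fractions (adjusted p 0.0547 to 0.0571). Wfdc15b read 94.7, 69.4 and 56.5 intensity units in RNPs against 60, 43.4 and 39.7 on polysomes (0.49 ± 0.21) and was called in RNPs under the other scalings, with the block and without polysome array 1 or RNP array 3. What share of the fraction differences of the somatic lists came with cell content was not tested.

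The respiratory chain and ATP synthase, 78 genes, were split, with 16 called in RNPs and 20 on polysomes and a median of 0.01. The counts became 6 in RNPs and 25 on polysomes after quantile normalization, 25 and 14 with medians centred, 25 and 15 with quantiles set within fractions and 4 and 5 on the adult arrays alone. They were 8 and 19 without polysome array 2. The side with more calls depended on the scaling. Cycs, the somatic cytochrome c, read 318, 362 and 214 intensity units in RNPs against 1254, 1806 and 1022 on polysomes (log2 -2.13 ± 0.26 SE, adjusted p = 1.07e-05), and Ndufa4 differed by -1.40 ± 0.26. Ndufb1 and Atp5e, both small subunits, were in RNPs at 1.33 ± 0.26 and 1.21 ± 0.23, and Ndufa7 at 3273, 3292 and 2729 intensity units in RNPs against 1611, 1225 and 1441 on polysomes (log2 1.11 ± 0.18 SE, adjusted p = 0.000111).

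Of 11 glycolytic enzymes of the somatic type, 5 were called on polysomes and 2 in RNPs (median -0.61). The counts became 0 in RNPs and 5 on polysomes after quantile normalization and 1 and 4 on the adult arrays alone. They were 1 and 4 without polysome array 2 or polysome array 3 or RNP array 1 and 1 and 6 without RNP array 3. Pgam1, the somatic counterpart of Pgam2, read 83.8, 44.8 and 53.9 intensity units in RNPs against 757, 371 and 460.1 on polysomes (log2 -2.81 ± 0.25 SE, adjusted p = 1.01e-06). Aldoc, an aldolase, differed by -1.42 ± 0.20, and Pgk1, the somatic counterpart of Pgk2, by -1.21 ± 0.28. Lactate dehydrogenase gave both sides: Ldhb was on polysomes at -1.66 ± 0.28, and Ldha in RNPs at 3891, 3349 and 5095 intensity units in RNPs against 2172, 1670 and 2355 on polysomes (log2 0.98 ± 0.21 SE, adjusted p = 0.00144), a call that quantile normalization ended (0.51, adjusted p = 0.061).

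Of 11 tubulins 4 were called on polysomes and 1 in RNPs (median -0.38). Tuba1a read 1050, 235 and 164 intensity units in RNPs against 2342, 1614 and 1234 on polysomes (log2 -2.22 ± 0.43 SE, adjusted p = 0.000691), and Tubb6, in RNPs, read 345, 318 and 248 intensity units in RNPs against 98.4, 48.9 and 94.2 on polysomes (log2 1.77 ± 0.35 SE, adjusted p = 0.000705). Of 35 genes of the secretory route through the endoplasmic reticulum, 6 were called in RNPs and 2 on polysomes, with a median of 0.02. The counts became 11 in RNPs and 2 on polysomes with medians centred, 10 and 2 with quantiles set within fractions and 11 and 7 with the block. They were 6 and 7 without polysome array 1 and 7 and 1 without polysome array 2. Spcs1, of the signal peptidase, read 4203, 4993 and 4067 intensity units in RNPs against 2107, 1737 and 1499 on polysomes (log2 1.31 ± 0.20 SE, adjusted p = 7.49e-05), and Srp9, of the signal recognition particle, differed by 1.30 ± 0.23. Of 18 immediate early and stress genes, 2 were called in RNPs and 4 on polysomes (median -0.31). The counts became 2 in RNPs and 2 on polysomes after quantile normalization or on the adult arrays alone and 3 and 2 with medians centred or with quantiles set within fractions. They were 3 and 2 without polysome array 1. Ddit3, a transcription factor of the stress response also called CHOP, read 436, 455 and 759 intensity units in RNPs against 102, 94.8 and 123 on polysomes (log2 2.18 ± 0.25 SE, adjusted p = 6.78e-06). Testis and replacement histones gave 0 calls of 5 by limma, 0 at an unadjusted p under 0.05 and 0 with the block or in a fit on the adult arrays alone (median -0.08, and above 0 with medians centred or quantiles set within fractions).

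A gene did not always have a single side. Of 2894 genes with at least 2 tested probe sets, 841 had at least 2 called, and 43 of these had calls on both sides. Pnkd read 46.4, 45.6 and 36.5 intensity units in RNPs against 367, 167 and 209 on polysomes with one probe set (log2 -2.11 ± 0.29 SE, adjusted p = 3.47e-05) and 1197, 1068 and 785 intensity units in RNPs against 580, 305 and 277 on polysomes with another (log2 1.41 ± 0.28 SE, adjusted p = 0.000694). Serp1, a membrane protein of the endoplasmic reticulum, read 180.3, 151 and 86.4 intensity units in RNPs against 264, 358 and 269 on polysomes (-1.06 ± 0.27) and 3049, 3216 and 2533 intensity units in RNPs against 1278, 792 and 754 on polysomes (1.66 ± 0.25). Tln1, the integrin-linking talin, differed by -1.17 ± 0.29 and 1.65 ± 0.27, and Mta3, of the NuRD chromatin complex, by -2.18 ± 0.18 and 0.85 ± 0.21. For Gna13, a G protein subunit, 2 RNP calls (1.79 ± 0.35 and 1.02 ± 0.23) and 1 polysome call (-1.44 ± 0.34) stayed without any single adult array. Polysome calls of 2 other Gna13 probe sets ended without single adult arrays (adjusted p 0.0545 to 0.182). They also ended in each of the other scalings (adjusted p 0.152 to 0.2555). Which transcript ends these probe sets read was not analysed here.

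The study set these fractions beside those of testes at 22 and at 17 days, when fewer stages of germ cells are present. The difference between the adult and the younger fraction difference was called for 16 of 14066 probe sets (0.114%) against 22 days, 5 (0.0355%) higher and 11 (0.0782%) lower in adults. Against 17 days it was called for 165 (1.17%), 58 (0.412%) higher and 107 (0.761%) lower. The replicate block gave 27 (0.192%) higher and 103 (0.732%) lower against 22 days, and 418 (2.97%) and 1146 (8.15%) against 17 days. Both contrasts use the same adult arrays. Single arrays moved these counts from 5 (without 22-day RNP array 3) to 26 (without adult RNP array 1) against 22 days. They moved them from 49 (without 17-day polysome array 1) to 326 (without adult RNP array 1) against 17 days.

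Cdkn1c, the cyclin-dependent kinase inhibitor p57, changed sides. In adults it read 669.6, 657 and 325 intensity units in RNPs against 144, 89.1 and 77.1 on polysomes (log2 2.23 ± 0.36 SE, adjusted p = 0.000131), and at 22 days it read 34.4, 27.4 and 6.4 in RNPs and 73.5, 71.5 and 58.2 on polysomes, a difference of -1.20 ± 0.36. The change from 22 days was 3.43 ± 0.51, adjusted p = 0.00755, and from 17 days 2.90 ± 0.51, adjusted p = 0.00844. The first ended without both adult arrays of replicate 2 (adjusted p = 0.0777), and the second too (adjusted p = 0.0539). Nqo2, a quinone reductase, read 248, 440 and 439 intensity units in RNPs against 116, 151 and 177 on polysomes in adults (log2 1.23 ± 0.23 SE, adjusted p = 0.000413) and 40, 35.5 and 36.6 in RNPs and 69.8, 60.5 and 68.1 on polysomes at 22 days, a change of 1.86 ± 0.32, adjusted p = 0.0203. That call ended without 22-day polysome array 1, 22-day polysome array 2, 22-day polysome array 3, 22-day RNP array 3, adult RNP array 2 or adult RNP array 3 (adjusted p 0.0557 to 0.0655), or without both adult arrays of replicate 2 or 3 (adjusted p 0.0715 to 0.1).

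Toward polysomes, one Ptgds probe set read 103, 52.3 and 53.5 intensity units in RNPs against 489.7, 759 and 908 on polysomes in adults (log2 -3.12 ± 0.26 SE, adjusted p = 7.41e-07) and 17.7, 24.9 and 35.3 in RNPs and 28.4, 44.1 and 26.7 on polysomes at 22 days, a change of -2.88 ± 0.37, adjusted p = 0.00264. Agt changed by -3.37 ± 0.53, adjusted p = 0.0105, and at 22 days none of its arrays was above 17.5 units. That call ended with a pseudocount of 1 or without both adult arrays of replicate 2 or 3 (adjusted p 0.0851 to 0.207). Apoc1, an apolipoprotein, changed by -2.64 ± 0.44, adjusted p = 0.017, and that call ended without 22-day polysome array 2, 22-day RNP array 3 or adult RNP array 3 (adjusted p 0.058 to 0.0632), or without both adult arrays of replicate 1 or 3 (adjusted p 0.0608 to 0.128). Lcn2, a lipocalin, read 200.1, 72.9 and 106 intensity units in RNPs against 1139, 1008 and 1493 on polysomes in adults and 1.3, 7 and 1.5 in RNPs and 31.8, 12 and 15 on polysomes at 22 days, a change of -2.32 ± 0.41, adjusted p = 0.0203, and its call ended without 22-day polysome array 2, 22-day polysome array 3, 22-day RNP array 2, 22-day RNP array 3, adult polysome array 3, adult RNP array 2 or adult RNP array 3 (adjusted p 0.0587 to 0.0955), or with quantiles set within fractions, with a pseudocount of 1, with a stricter filter or without both adult arrays of replicate 2 or 3 (adjusted p 0.0546 to 0.987). With a pseudocount of 1 the change of Lcn2 was -0.96. At 22 days the arrays of Agt, of Lcn2 and of this Ptgds probe set all lay under the filter value of 51.6 units.

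The kallikrein-related peptidase genes Klk1b21, Klk1b24 and Klk1b27 changed by -2.50 ± 0.45, adjusted p = 0.0203, -2.04 ± 0.36, adjusted p = 0.0203 and -2.78 ± 0.49, adjusted p = 0.0203. The call of Klk1b21 ended without 22-day polysome array 1, 22-day polysome array 3, 22-day RNP array 1, 22-day RNP array 3, adult polysome array 3, adult RNP array 2 or adult RNP array 3 (adjusted p 0.0632 to 0.0902), or with a pseudocount of 1, with a stricter filter or without both adult arrays of replicate 2 or 3 (adjusted p 0.0615 to 0.162). The call of Klk1b24 ended without 22-day polysome array 1, 22-day polysome array 2, 22-day polysome array 3, 22-day RNP array 2, 22-day RNP array 3 or adult RNP array 3 (adjusted p 0.0529 to 0.0863), or with a pseudocount of 1, with a stricter filter or without both adult arrays of replicate 3 (adjusted p 0.0615 to 0.0917), and that of Klk1b27 without 22-day polysome array 1, 22-day polysome array 2, 22-day RNP array 3, adult polysome array 3, adult RNP array 2 or adult RNP array 3 (adjusted p 0.0599 to 0.0907), or with a pseudocount of 1, with a stricter filter or without both adult arrays of replicate 2 or 3 (adjusted p 0.0851 to 0.702). In adults these 3 read 87.1, 31.3 and 39.8 intensity units in RNPs against 398, 405 and 744 on polysomes, 111, 88.7 and 56.6 intensity units in RNPs against 457, 345 and 805 on polysomes and 47, 6.5 and 7.7 intensity units in RNPs against 234, 186 and 368 on polysomes. At 22 days the highest of their arrays was 75.5 units, for Klk1b21, and no array of Klk1b27 was above 11.8 units. These genes belong to a cluster of near-identical copies, so which copy gave a signal is uncertain.

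Mta3, through its polysome-side probe set, was measured at both ages. It read 31.3, 23.9 and 20.9 intensity units in RNPs against 167, 145 and 196 on polysomes in adults and 136, 149 and 159 in RNPs and 151, 199 and 169 on polysomes at 22 days, a change of -1.98 ± 0.26, adjusted p = 0.00264. The RNP signal was several-fold lower in adults than at 22 days while the polysome signals overlapped.

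**Figure D5:**
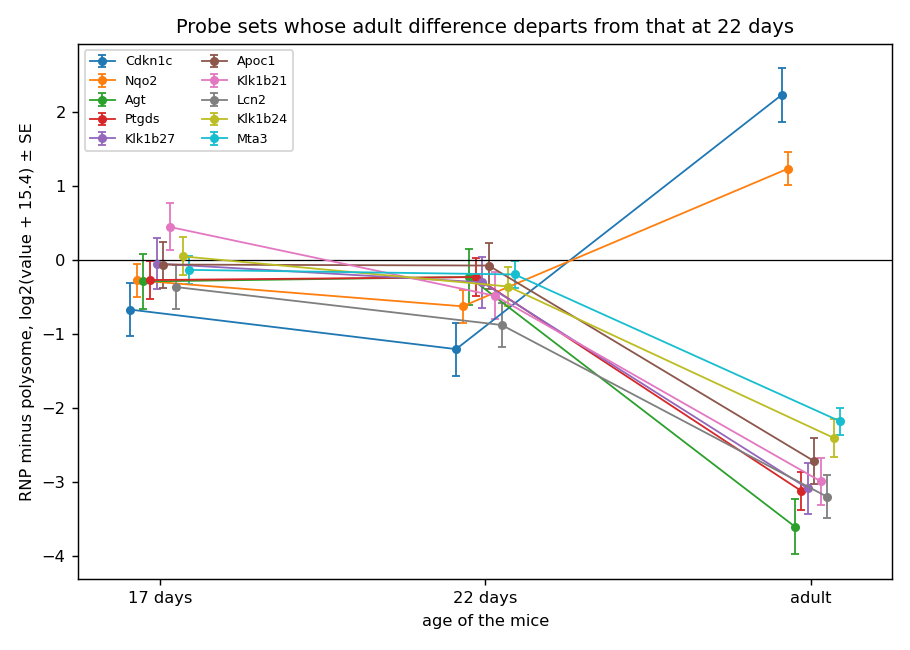
Fraction difference (RNP minus polysome, log2(value + 15.4) scale, points with SE bars from the model, 3 arrays per fraction and age) at 17 days, 22 days and in adults for the 10 genes named against 22 days. Cdkn1c and Nqo2 end above 0, and the other 8 lie between -2.18 and -3.60 in adults.

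Against 17 days, Tubb6 had the largest of the named changes toward RNPs, 3.55 ± 0.49, adjusted p = 0.00236. It read 7.8, 12.9 and 17.5 in RNPs and 84.1, 79.9 and 78.1 on polysomes at 17 days, all polysome arrays above all RNP arrays, and the reverse in adults. Itsn2, an adaptor of endocytosis, read 71.3, 65.5 and 76.3 in RNPs and 148, 98.4 and 124 on polysomes at 17 days and 403, 907 and 538 intensity units in RNPs against 178, 166 and 144 on polysomes in adults, a change of 2.42 ± 0.39, adjusted p = 0.00516. The kinase Prkcd changed by 2.19 ± 0.41, adjusted p = 0.0144, a call that ended without both adult arrays of replicate 2 or 3 (adjusted p 0.061 to 0.0625). App, the amyloid precursor, changed by 2.34 ± 0.49, adjusted p = 0.0248, a call that ended without 17-day polysome array 1, 17-day polysome array 2, 17-day RNP array 1, 17-day RNP array 3 or adult RNP array 3 (adjusted p 0.0504 to 0.0757), or without both adult arrays of replicate 2 or 3 (adjusted p 0.0732 to 0.0857).

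In the direction of polysomes, Mmd2 changed by -3.38 ± 0.49, adjusted p = 0.0026. It read 362, 448 and 402 in RNPs and 418, 533 and 348 on polysomes at 17 days, so the polysome arrays of both ages overlapped while every adult RNP array lay far below every RNP array of 17 days. Thrsp, a regulator of lipid synthesis, changed by -2.74 ± 0.40, adjusted p = 0.0026, and Tesc, a calcium-binding protein, by -3.44 ± 0.60, adjusted p = 0.00844. Tesc read 156, 214 and 134 in RNPs and 9.4, 45.8 and 21 on polysomes at 17 days, on the RNP side. Its adult call on polysomes (-1.19 ± 0.42) ended without polysome array 1, polysome array 3 or RNP array 3 (adjusted p 0.0649 to 0.202), or after quantile normalization, with medians centred, with quantiles set within fractions, with a pseudocount of 1 or with no filter (adjusted p 0.0553 to 0.0917).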

How the data were processed

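Each array's deposited values are linear intensities. Per the submitters' processing notes the authors used MAS5 (version not given in the sources used here). With 2% trimmed at either end, array means were 149.6 to 150.0, so the values had been scaled, and adult medians were 42.8 to 56.7. From these deposited intensities log2(value + 15.4) was computed, 15.4 being the 25th percentile of all values. Probe sets with at least 3 of 18 arrays above 51.6, the 50th percentile, were tested, and 64 controls were left out.

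A single limma model (limma 3.58.1, R 4.3.3) held all 18 arrays in 6 groups (12 residual and 6.52 prior degrees of freedom, variance trend). Every adjusted p is limma's, two-sided, with Benjamini-Hochberg adjustment over 14066 probe sets. Deviations from group means correlated between same-numbered adult arrays at 0.462 to 0.586, and over all ages at 0.198 to 0.586. Adult arrays of unlike number correlated at -0.441 to -0.081. At 17 days some unlike numbers also correlated, RNP array 1 with polysome array 3 at 0.346 (0.312 with polysome array 1). RNP array 3 correlated with polysome array 1 there at 0.265. Replicate numbers were taken to pair the fractions, though at 17 days these correlations do not single out the same-numbered pairs. A second fit held that block, leaving 6 residual degrees of freedom. Scripts were tested on simulated data.

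Names came from the platform annotation; of the tested probe sets 12972 carried a single gene symbol, which covered 8713 genes. Genes were named by a rule. It took the 15 largest non-overlapping calls per side, a set of well-known testis genes and genes with calls on both sides. It also took up to 6 called members of each list, those against its direction, and up to 8 changes between ages per direction. These changes were the largest among probe sets with a single gene symbol that were called both for the change and in adults. A change without an adult call was therefore not named by that part of the rule. The members and lists were chosen with earlier results of these data known. Other pseudocounts, filters, scalings, sample sets and left-out arrays were tried.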

Additional observations from a re-analysis of the deposited data

Results flagged for a closer look

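Each of the following probe sets had a fraction difference in adults that departed from the one at a younger age, by a test of the change itself (limma, adjusted p under 0.05 over 14066 probe sets). Only named probe sets are listed, 11 of the 16 called against 22 days and 33 of the 165 called against 17 days. Naming for a change also required a call in adults. The values are the adult difference minus the younger one, on the log2 scale. Both ages were compared with the same adult arrays. No explanation was tested for any of them.

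Against 22 days, the adult difference was higher for Cdkn1c 3.43 and Nqo2 1.86. It was lower for Agt -3.37, Ptgds -2.88, Klk1b27 -2.78, Apoc1 -2.64, Ptgds -2.61, Klk1b21 -2.50, Lcn2 -2.32, Klk1b24 -2.04 and Mta3 -1.98. Ptgds stands more than once in these lists because 2 of its probe sets were named.

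Against 17 days, the adult difference was higher for Tubb6 3.55, Cdkn1c 2.90, Ccdc93 2.47, Itsn2 2.42, App 2.34, 2610528A11Rik 2.24, Prkcd 2.19, 1190005I06Rik 2.11, Spcs2 1.71 and Nqo2 1.51. It was lower for Tesc -3.44, Klk1b21 -3.43, Mmd2 -3.38, Agt -3.31, Klk1b27 -3.03, Ptgds -2.94, Ptgds -2.85, Lcn2 -2.83, Thrsp -2.74 and Apoc1 -2.65. Then came Klk1b24 -2.45, Pgk2 -2.39, Fabp3 -2.32, Txn1 -2.27, Ephx1 -2.23, Rpa2 -2.06, Mta3 -2.04, Fhl4 -2.03, Etfa -1.87 and Serp1 -1.86. Then came Pgam1 -1.57, Pgam2 -1.44 and Psmb1 -1.09. The adjusted p-values ran from 0.00138 to 0.0498 against 17 days and from 0.00264 to 0.0203 against 22 days, and with the replicate block from 0.000268 to 0.021 over both. Of the 11 changes listed against 22 days, 9 lost their call under at least 1 alternative, and of the 33 against 17 days, 20 did. Ptgds (-2.88) and Mta3 kept it against 22 days. Against 17 days Tubb6, Itsn2, Tesc, Klk1b21, Mmd2, Agt, both Ptgds probe sets, Thrsp, Apoc1, Klk1b24, Fabp3 and Mta3 kept it, whereas 2610528A11Rik, Ccdc93 and 1190005I06Rik reached adjusted p-values of 0.347, 0.0778 and 0.0983 with a pseudocount of 1.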

How the results depend on the processing

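The number of adult calls depended on the scaling, on the arrays in the fit and on the replicate pairing. Probe sets higher in RNPs (1772) became 3271 with medians centred, 3277 with quantiles set within each fraction and 830 in a fit on the 6 adult arrays alone; those higher on polysomes (3640) became 2336, 2404 and 2120. Pairing the arrays by replicate number within an age, as a block, gave 2672 in RNPs, 130 changes against 22 days (16 without it) and 1564 against 17 days (165 without it), and it brought in 5 named uncalled probe sets. Against 22 days, 25 were called with no filter and 30 after quantile normalization. Over the settings that left out arrays, RNP calls ran from 1150 (without both arrays of replicate 3) to 1950, polysome calls from 2394 to 3911, changes against 22 days from 5 to 26, and changes against 17 days from 49 to 368, the last with 17-day replicate 2 and adult replicate 1 removed from both fractions, 4 arrays in all.

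Differences that turned after quantile normalization were those of Prm1 (-0.074), Prm2 (-0.030), Odf1 (-0.19), Akap4 (-0.021), Smcp (-0.059), Ldhc (-0.16), Pabpc1 (-0.0026), Actb (-0.37) and Eif5a (-0.049). Without single arrays or pairs, Odf1 ran from -0.013 to 0.53, Akap4 from -0.17 to 0.86 and Actb from -0.13 to 0.14. Among these only Pabpc1 and Eif5a had been called. The causes were not tested. Of 229 called named probe sets, 158 kept their call under every alternative and 187 whichever single adult array was left out. The planned comparison by protein length was not run, because no protein table was used here. With 3 arrays per group, and the dimmest transcripts close to background, small differences could not be resolved.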

Other observations

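The kallikrein cluster was chosen for description after its values were seen. Of 6 tested Klk1b probe sets, 3 were called on polysomes in adults and 3 in RNPs, against 25.9% and 12.6% of all tested probe sets. Klk1b8 read 318, 327 and 358 intensity units in RNPs against 70.8, 69.2 and 56.8 on polysomes (2.11 ± 0.31), and the Klk1b5 probe sets differed by 1.85 ± 0.29 and 1.63 ± 0.31. These stand opposite to Klk1b21, Klk1b24 and Klk1b27 (-2.99, -2.40 and -3.08). The genes are near-identical copies of each other.

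Genes that carry only a RIKEN clone name were also counted after their place among the largest RNP differences was seen. Of 155 such probe sets, 54 (34.8%) were called in RNPs and 19 (12.3%) on polysomes, with a median difference of 0.35. Of 12817 probe sets with another name, 1534 and 3383 were called, with a median of -0.18.

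Among the array controls, which were not tested, the probe set for the B1 repeat, a short interspersed element of the mouse genome, read 7035, 5966 and 4501 units in RNPs against 879, 394 and 537 on polysomes. The probe set for the B2 repeat read 6510, 6676 and 5102 against 5201, 5040 and 3506. The poly-A spike controls averaged 145, 47.8 and 35.6 units on the RNP arrays and 273, 126 and 79.2 on the polysome arrays. How these controls bear on the RNA content of the fractions, or on the scaling, was not tested.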
